A study of Arabidopsis thaliana with 22 samples.

Results

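The trans-acting siRNA precursors TAS1 to TAS4 are long non-coding RNAs of Arabidopsis thaliana that are cut by a microRNA and then diced into phased small interfering RNAs. The loci were taken by their identifiers: TAS1A (AT2G27400), TAS1B (AT1G50055), TAS1C (AT2G39675), TAS2 (AT2G39681), TAS3A (AT3G17185), TAS3B (AT5G49615), TAS3C (AT5G57735) and TAS4 (AT3G25795). All 8 were among the 5224 loci with values, 7 of them had reads in at least 1 library, and 6 had enough reads to be tested. None of the 5182 loci matched to the RefSeq annotation was protein-coding, and lncRNA was the largest class with 3476. Levels, ranks and shares of loci therefore refer to this set and not to all transcripts. RNA came from roots of 11-day-old plants, cut into the meristematic-elongation zone (MEZ) near the tip and the older differentiation zone (DZ), and was made into stranded mRNA libraries. Wild-type plants of the accession Ws were set beside proscoop12, a mutant in the Ws background whose roots are longer and which is affected in PROSCOOP12, which encodes the precursor that the signalling peptide SCOOP12 is released from. Both genotypes were given either water (control) or 100 nM SCOOP12. In all, 22 libraries form 8 groups, with 3 libraries in each of Ws MEZ control, Ws DZ SCOOP12 and the 4 proscoop12 groups, and 2 in each of Ws MEZ SCOOP12 and Ws DZ control. The labels do not say how many plants were pooled, what the proscoop12 lesion is, or whether replicates were grown separately, so p-values measure the spread between these samples only.

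In this pathway an ARGONAUTE protein guided by a microRNA binds the precursor, RDR6 and SGS3 turn the RNA into a double strand, and DCL4 dices it into siRNAs that silence other transcripts. miR173 with AGO1 acts on TAS1 and TAS2, whose siRNAs target many pentatricopeptide repeat genes and, for TAS1, the heat tolerance genes HTT1 and HTT2. miR390 with AGO7 acts on TAS3, whose siRNAs (tasiARFs) target the auxin response factors ARF2, ARF3 and ARF4, a pathway known in roots for its part in lateral root growth. miR828 acts on TAS4, from which an siRNA targets MYB regulators of anthocyanin synthesis, among them PAP1 and PAP2. None of the 10 proteins listed for the pathway (AGO1, AGO7, RDR6, SGS3, DCL4, DRB4, HEN1, ARF2, ARF3 and ARF4) had a value. Their genes are not among the 5224 loci with values, so their expression is unknown here and only the precursors could be followed.

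The mature trigger miRNAs are shown because they assign each precursor to its branch of the pathway. They are written 5′ to 3′ in DNA letters, with the seed (bases 2 to 8) in capitals, from RefSeq's TAIR10.1 annotation.
miR173-5p: tTCGCTTGcagagagaaatcac
miR390a-5p: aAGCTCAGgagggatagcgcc
miR828: tCTTGCTTaaatgagtattcca
The sequences of miR390a-5p and miR390b-5p were the same, and the 3 seeds differ. The best ungapped match to its trigger was then located in each precursor, and for TAS3 the best pair of matches, since TAS3 RNAs are known to carry a pair of miR390 sites. In the sites below, capitals mark bases that do not form a Watson-Crick pair with the miRNA.
TAS1A: gtgatttTtctctAcaagcgaa
TAS1B: gtgatttTtctcAAcaagcgaa
TAS1C: gtgatttTtctctAcaagcgaa
TAS2: gtgatttTtctctCcaagcgaa
TAS3A upstream: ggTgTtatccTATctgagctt
TAS3A downstream: TTGTctatccctcctgagctA
TAS4: tggaatactcatttGagcaaga
TAS1A, TAS1C and TAS2 each pair with miR173-5p at 20 of 22 bases with 1 G:U pair and 1 mismatch, and TAS1B at 19 with 1 G:U pair and 2 mismatches. TAS4 pairs with miR828 at 21 of 22 bases and with a G:U pair at the remaining 1. In TAS3A the upstream site has 16 pairs, 4 G:U pairs and 1 mismatch of 21, and the downstream site 16 pairs and 5 mismatches, 4 of which lie at the site's 5′ end. The TAS1A site is at chr2:11722081-11722102 and the TAS1C site at chr2:16537890-16537911, both on the minus strand. The TAS4 site is at chr3:9417809-9417830 on the minus strand, and the TAS3A sites are at chr3:5862099-5862119 and chr3:5862343-5862363 on the plus strand (TAIR10.1).

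**Figure D1:**
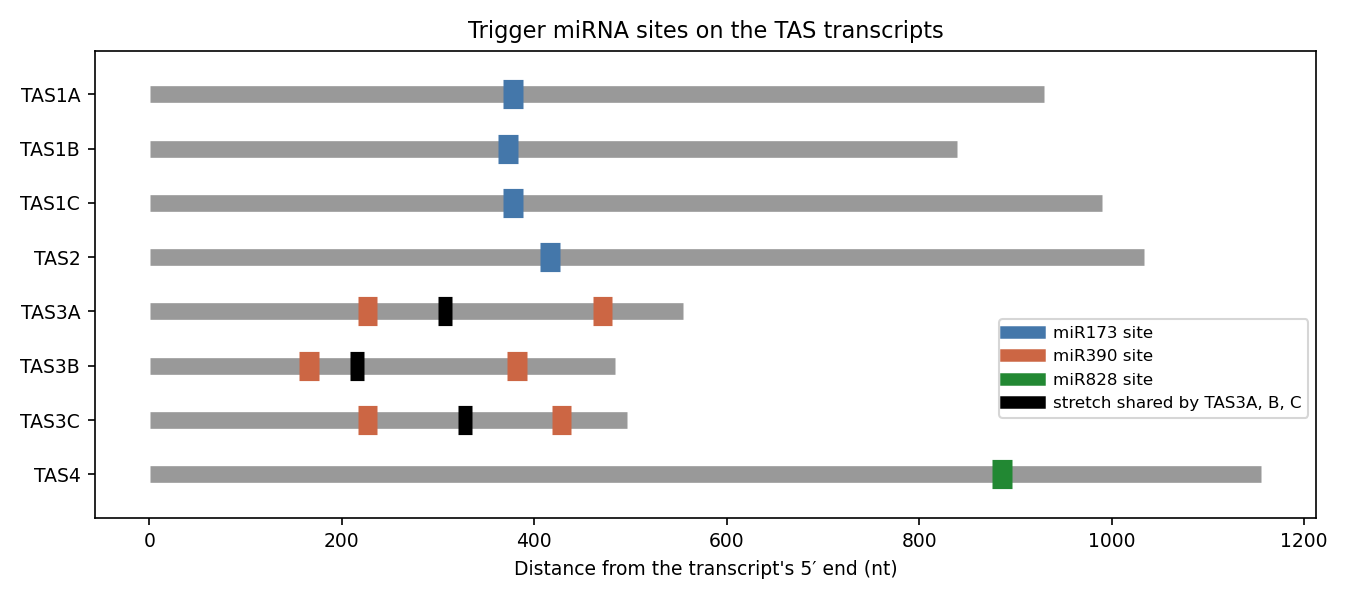
Positions of the best trigger miRNA sites on the 8 TAS transcripts, drawn to scale as distance from the transcript's 5′ end in nt. Sites of miR173 lie between bases 362 and 427 of TAS1A, TAS1B, TAS1C and TAS2, the miR828 site at base 876 of TAS4, and the stretch shared by the 3 TAS3 transcripts between their miR390 sites.

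The 3 TAS3 transcripts have 15 bases in common, here in capitals, with 10 bases before and 25 after. They are shown because the tasiARFs, the siRNAs that give TAS3 its known role, begin with the last 12 of these bases.
TAS3A: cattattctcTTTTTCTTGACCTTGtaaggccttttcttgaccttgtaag
TAS3B: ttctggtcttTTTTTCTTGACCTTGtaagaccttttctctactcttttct
TAS3C: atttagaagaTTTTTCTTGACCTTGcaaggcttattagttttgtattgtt
These windows are chr3:5862172-5862221, chr5:20134501-20134550 and chr5:23394315-23394364, all on the plus strand. Those 12 bases occur in 2 copies in TAS3A, in 1 copy each in TAS3B and TAS3C, and in none of the TAS1, TAS2 and TAS4 transcripts.

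TAS1A is a single exon of 930 nt at chr2:11721539-11722468, TAS1B one of 839 nt at chr1:18549204-18550042 and TAS4 one of 1155 nt at chr3:9417551-9418705, all on the minus strand. TAS1C (990 nt, chr2:16537288-16538277) and TAS2 (1034 nt, chr2:16539384-16540417) stand in tandem on the minus strand, 1106 nt apart with 0 genes between them. TAS3A spans chr3:5861491-5862437 on the plus strand, and the transcript counted is the spliced form of 555 nt with 2 exons, so reads from the intron of the 947 nt form were not counted. The TAS1 transcripts resemble each other, with 82.5% to 86.3% identity over aligned bases, against 61.5% to 74.0% for the other TAS pairs. Matches between TAS1 loci found with blastn had 66.8% to 81.3% identity. TAS1A shares only 1.89%, TAS1B 2.47% and TAS1C 1.15% of its 31-base words with another TAS transcript. The estimated reads of all 8 loci were whole numbers in every library. TAS1C has 31 nt opposite an exon of the protein-coding gene AT2G39670 and TAS1B has 78 nt opposite the miRNA locus AT1G07613, which had 0 reads, while the other 6 overlap no exon of another gene. The strand that was counted is not given in the sources used here, so reads of AT2G39670 within those 31 nt cannot be told apart from TAS1C.

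Libraries held 474434 to 1575524 estimated reads on all listed loci, and 696 to 1753 of them fell on TAS precursors. Levels are given as counts per 1000000 reads on the 844 loci tested (CPM), with library sizes scaled by the TMM method, and per kilobase of transcript where loci are compared with each other. Loci of the plastid and mitochondrial genomes took 17.2% to 21.9% of reads in MEZ libraries and 36.1% to 43.9% in DZ controls. In DZ with SCOOP12 they took 46.9% (Ws) and 38.2% (proscoop12) in replicate 1 and 19.7% to 25.2% in the other 4 libraries. In the names of the sequencing files, 2 replicate 3 libraries carry each other's group: the library labelled Ws DZ SCOOP12 and the library labelled proscoop12 DZ control. The labels were kept here. The same names place replicates 1 and 3 in other sequencing runs than replicate 4. None of 6 protein-coding markers listed for the zones is among the loci with values, so the zone labels were not checked against markers. Because whole root zones were sampled, fewer cells of a type and less RNA per cell cannot be told apart in any of the results.

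TAS3A stood far above the other precursors. Its mean level was 1786 ± 548 CPM per kb (SD, n = 22 libraries), and in each library it took 72.2% to 91.7% of the CPM of all TAS loci together. It was the locus with rank 29 of 844 tested loci by level per kb, a set in which no locus matched a protein-coding gene. TAS1A followed at 105 ± 23.3 CPM per kb, TAS1B at 55.5 ± 13.5, TAS2 at 40.3 ± 11.1, TAS1C at 19.3 ± 7.44 and TAS4 at 8.58 ± 7.05 CPM per kb. TAS3A exceeded TAS1A in 22 of 22 libraries, by 8.98-fold to 50.3-fold, and TAS2 exceeded TAS1C in 22 of 22. TAS1A was above TAS1B in 20 libraries, TAS1B above TAS2 in 18 and TAS1C above TAS4 in 17, so these neighbours in the order overlapped in their spread. Every step of this order was also found with the deposited TPM, where TAS3A was above TAS1A in 22 libraries.

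The other TAS3 genes were barely seen. TAS3B had 7 reads in all: 1 in Ws DZ control replicate 3, 2 and 1 in proscoop12 DZ control replicates 3 and 4, and 3 in proscoop12 DZ SCOOP12 replicate 4. All 4 of those libraries are of DZ, and the 11 MEZ libraries had 0 reads, which allows a level of up to 0.337 CPM over MEZ. TAS3C had 0 reads in 22 libraries, which allows up to 0.162 CPM over all of them. Neither was tested. The hairpin precursors of the triggers also had few reads, with 2 for MIR173 (AT3G23125), 3 for MIR390A (AT2G38325), 2 for MIR390B (AT5G58465) and 1 for MIR828 (AT4G27765) in all libraries together. For MIR390A, 107 nt long, Salmon gave an effective length of only 2.85 to 3.06 nt, so few fragments could be assigned to it. The effective length was 8.15 to 8.97 nt for MIR390B, 39.2 to 47.1 nt for MIR828 and 102 nt for MIR173. Low counts of MIR390A, MIR390B and MIR828 therefore do not show that their RNA was scarce. For MIR173 the effective length equals the full length, and whether its RNA was scarce was not tested.

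**Figure D2:**
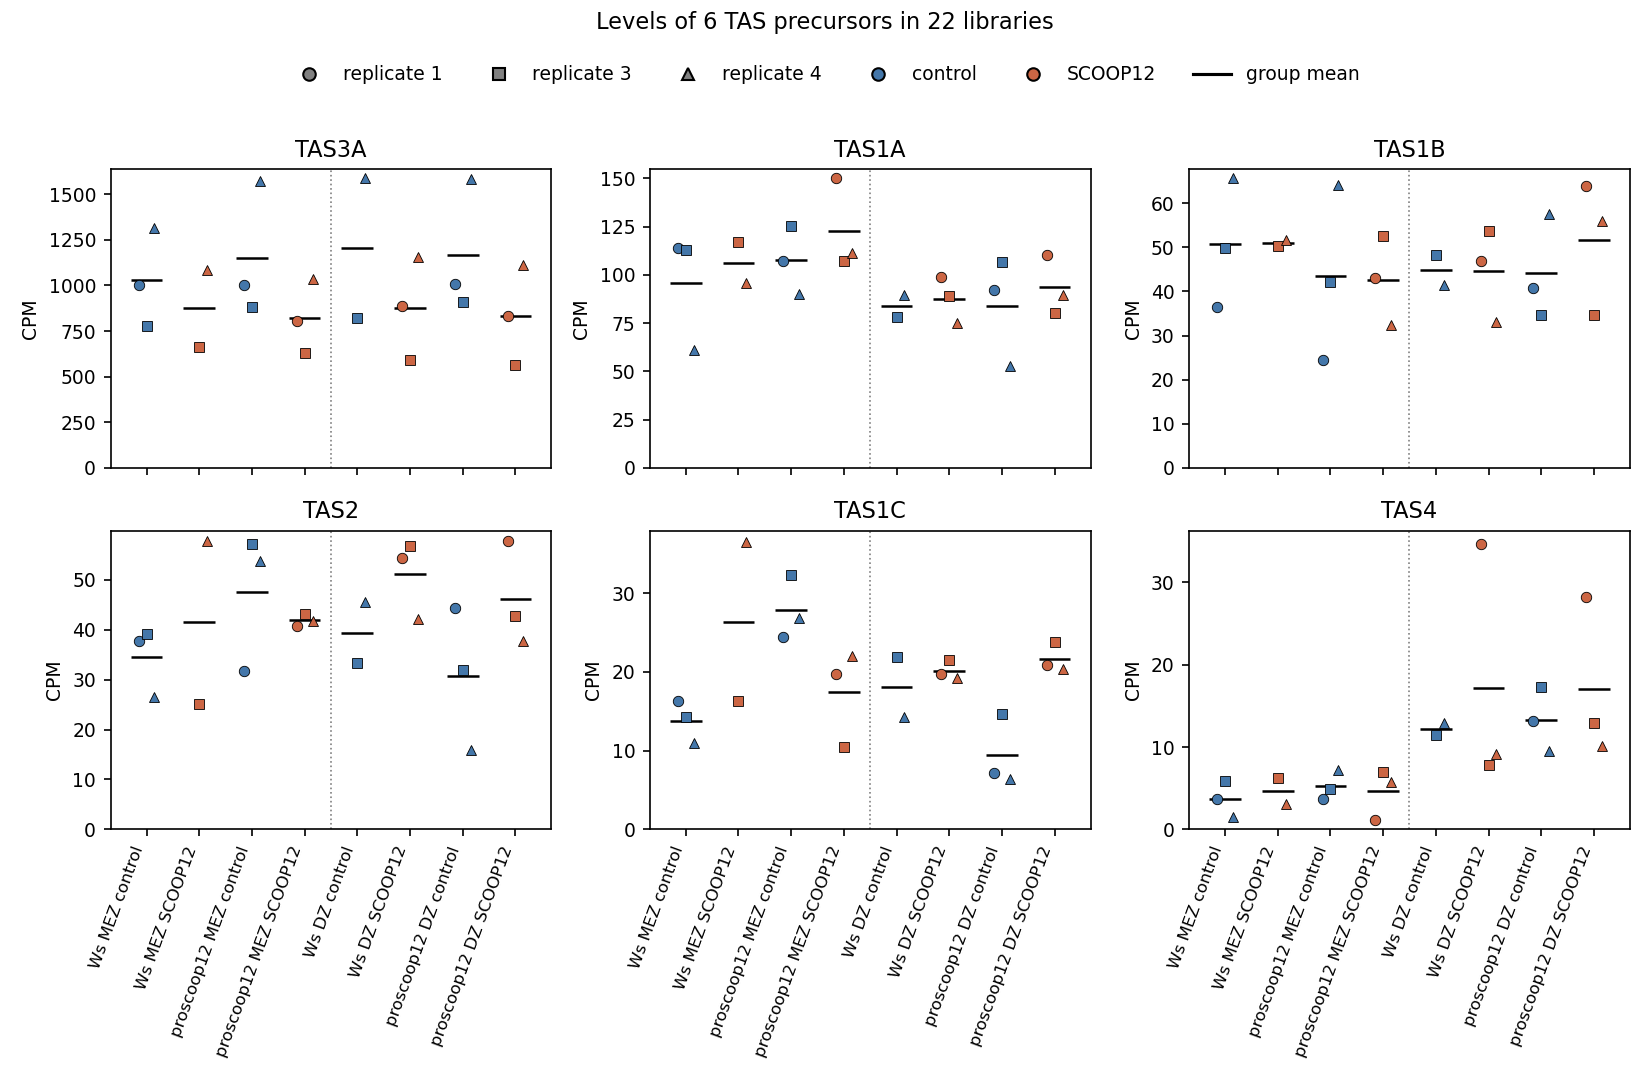
Levels of the 6 tested TAS precursors in every library, in CPM on linear axes that start at 0, by group; the marker shape gives the replicate number, the colour the treatment and the bar the group mean. TAS4 lies between 7.82 and 34.6 CPM in the DZ libraries and between 1.16 and 7.24 CPM in the MEZ libraries, and TAS3A is at its highest in replicate 4.

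The zones were compared to ask which precursors differ between the growing tip and the differentiated root. TAS4 was higher in DZ than in MEZ, on average 3.11-fold. It was the 1 TAS precursor of 6 to pass in the comparison averaged over genotypes and treatments, fitted without a replicate term. In the MEZ controls TAS4 stood at 3.76, 5.94 and 1.56 CPM in Ws replicates 1, 3 and 4 and at 3.66, 4.97 and 7.24 CPM in the same replicates of proscoop12. In the DZ controls it stood at 11.5 and 13.0 CPM in Ws replicates 3 and 4 and at 13.2, 17.3 and 9.59 CPM in proscoop12 replicates 1, 3 and 4. Every DZ control was above every MEZ control. Within the controls of Ws 49.6% of tested loci did not overlap between zones, and within those of proscoop12 37.2%.

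With SCOOP12, TAS4 was at 6.29 and 3.04 CPM in Ws MEZ replicates 3 and 4 and at 1.16, 7.00 and 5.79 CPM in proscoop12 MEZ replicates 1, 3 and 4. In DZ it was at 34.6, 7.82 and 9.17 CPM in Ws replicates 1, 3 and 4 and at 28.2, 12.9 and 10.2 CPM in proscoop12. The highest levels, 34.6 and 28.2 CPM, belong to the DZ SCOOP12 libraries of replicate 1, which are also the treated DZ libraries with organellar shares of 46.9% and 38.2%; the part of that share in the TAS4 level was not tested. Over all libraries the 11 DZ values did not overlap the 11 MEZ values. The averaged log2 fold change was 1.64 (SE 0.36, 95% interval 0.89 to 2.38), and it passed the quasi-likelihood test of edgeR at a Benjamini-Hochberg adjusted p of 0.00107 over 844 loci. In that comparison 37.8% of all tested loci passed, 19.5% as higher in DZ, and 3.44% did not overlap between zones. Without the 2 libraries with crossed file names the log2 fold change was 1.71 (edgeR adjusted p 0.00109). The values rest on few reads, 42 over the 11 MEZ libraries and 142 over the 11 DZ libraries.

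Taken group by group, the TAS4 difference had the same direction each time. The log2 fold change was 1.62 (SE 0.76) in Ws control, 1.30 (SE 0.66) in proscoop12 control, 1.79 (SE 0.77) in Ws with SCOOP12 and 1.83 (SE 0.65) in proscoop12 with SCOOP12. None of these passed on its own (edgeR adjusted p 0.149, 0.177, 0.400 and 0.168, for Ws control, proscoop12 control, Ws with SCOOP12 and proscoop12 with SCOOP12), where 18.4%, 19.8%, 0.948% and 0.948% of all loci passed. In Ws with SCOOP12 the log2 fold change was 0.82 without DZ replicate 1, the library at 34.6 CPM, and 2.41 without MEZ replicate 3. The zones did not overlap at TAS4 in any of the 4 settings, beside 49.6%, 37.2%, 24.8% and 19.4% of tested loci. With the replicate number as a block, TAS4 did not pass in any setting (edgeR adjusted p 0.0810 to 0.262). In those comparisons 6.87% to 31.8% of loci passed.

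The other 5 precursors did not pass between zones on average in the fit without a replicate term. TAS3A differed by a log2 value of 0.07 (95% interval -0.32 to 0.46), TAS2 by 0.00451 (-0.39 to 0.40) and TAS1B by -0.02 (-0.40 to 0.36). TAS1A stood at 61.0, 111 and 150 CPM (lowest, median and highest of 11) in MEZ and at 52.7, 89.6 and 110.5 CPM in DZ. Its log2 fold change was -0.31 (95% interval -0.62 to 0.01, edgeR adjusted p 0.119), and the zones overlapped. With the replicate number as a block TAS1A passed as lower in DZ (-0.30, 95% interval -0.55 to -0.05, edgeR adjusted p 0.0436). In that fit 47.4% of all tested loci passed between zones, 23% as lower in DZ. The median log2 fold change over the 6 TAS precursors was -0.01, against -0.02 over all 844 loci.

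TAS1C differed between the zones in proscoop12 without added peptide. It stood at 24.4, 32.3 and 26.9 CPM in proscoop12 MEZ control replicates 1, 3 and 4 and at 7.18, 14.6 and 6.39 CPM in the matching DZ controls. The groups did not overlap, and TAS1C was lower in DZ with a log2 fold change of -1.54, an SE of 0.40 and an adjusted p of 0.00868 in edgeR. It was the 1 TAS precursor of 6 that passed there, where 19.8% of loci passed and 37.2% did not overlap. TAS2, its tandem neighbour, stood at 47.5 ± 13.8 CPM in MEZ and 30.7 ± 14.2 CPM in DZ of the proscoop12 controls (SD, n = 3 each). This gave a log2 fold change of -0.61 with an SE of 0.36 and failed the test (adjusted p 0.246 in edgeR).

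In Ws controls TAS1C was at 16.3, 14.3 and 10.9 CPM in MEZ and at 21.8 and 14.3 CPM in DZ, where the zones overlapped. Tested directly, the zone difference in proscoop12 control minus that in Ws control was -1.92 on the log2 scale with an SE of 0.59. Its unadjusted p was 0.00399, but it missed the threshold with an adjusted p of 0.99986 in edgeR, in a comparison chosen after the levels were seen in which 0% of loci passed and 3.2% had an unadjusted p under 0.05. The TAS1C call rests on 21 reads in the 3 DZ controls. It was lost without proscoop12 DZ control replicate 4 (log2 fold change -1.27, edgeR adjusted p 0.0681) and when the labels of the 2 libraries with crossed file names were exchanged (-1.18, adjusted p 0.0683). It held without both of those libraries (-1.94, adjusted p 0.00892).

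SCOOP12 was added to ask which precursors respond to the peptide. TAS3A, the source of the tasiARFs, was lower in CPM with SCOOP12 in every one of 10 pairs. Each pair is a treated and a control library that share genotype, zone and replicate number. In MEZ, TAS3A went from 777 to 660 CPM in Ws replicate 3 and from 1313 to 1087 CPM in Ws replicate 4. In proscoop12 MEZ it went from 1003 to 803, from 884 to 628 and from 1571 to 1032 CPM in replicates 1, 3 and 4. In each of these 5 pairs the treated library was below its control.

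In DZ, TAS3A went from 823 to 593 CPM in Ws replicate 3 and from 1586 to 1156 CPM in Ws replicate 4. In proscoop12 DZ it went from 1008 to 831, from 909 to 564 and from 1582 to 1109 CPM in replicates 1, 3 and 4. In proscoop12 DZ replicate 3, TAS3A held 683 of 1183348 reads in control and 568 of 981032 with SCOOP12. The scaled library sizes there were 751087 and 1006926, so the fall in this pair rests on the scaling. By share of all reads TAS3A was lower with SCOOP12 in every other pair. The unpaired libraries were Ws MEZ control replicate 1 at 1003 CPM and Ws DZ SCOOP12 replicate 1 at 885 CPM. Over all 10 pairs the treated library held 0.620 to 0.850 of its control, and the mean log2 difference was -0.43 with an SD of 0.15. Of the 844 tested loci, 1.66% were lower in all 10 pairs. If the labels with crossed file names were exchanged, the DZ pairs of replicate 3 would run from 823 to 909 CPM in Ws and from 593 to 564 CPM in proscoop12, so the first of them would be higher with SCOOP12.

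**Figure D3:**
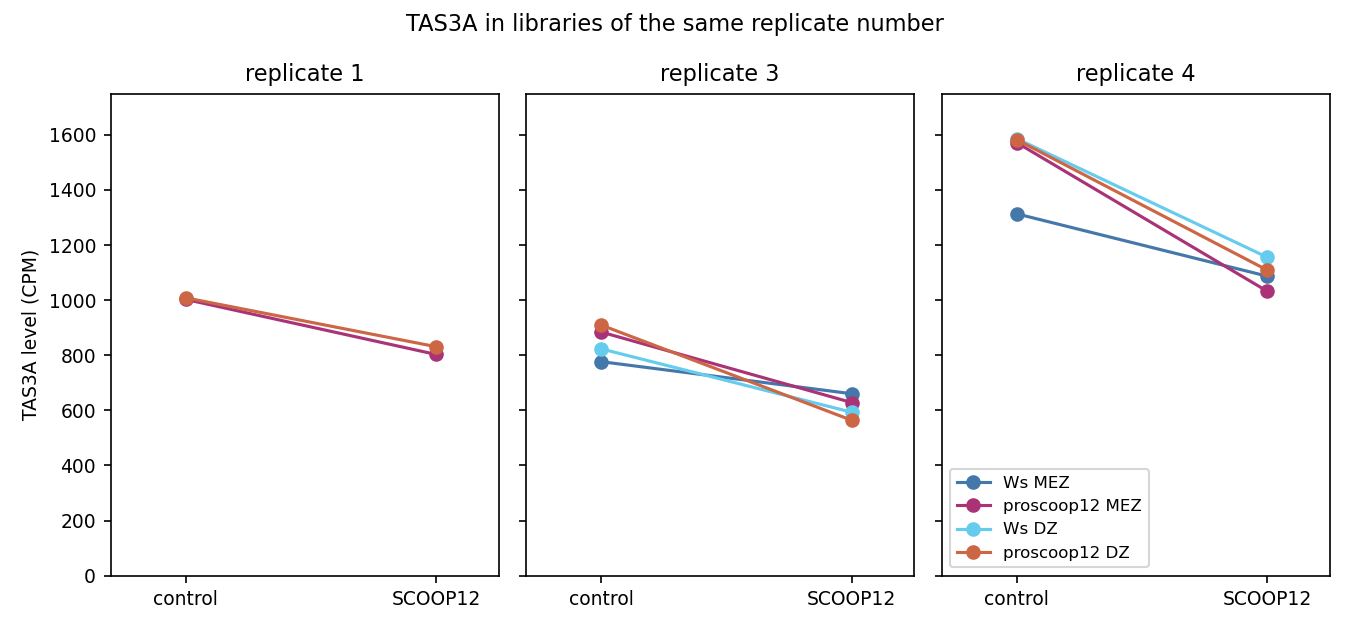
TAS3A level in CPM in control and SCOOP12 libraries of the same genotype, zone and replicate number, joined by lines, with a panel for each replicate number and a linear axis from 0. All 10 lines fall, and the replicate 4 libraries lie between 1032 and 1586 CPM, above the 564 to 1008 CPM of replicates 1 and 3.

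Averaged over genotypes and zones, the log2 fold change of TAS3A with SCOOP12 was -0.42 (SE 0.19, 95% interval -0.81 to -0.03), and it did not pass in the fit without a replicate term (edgeR adjusted p 0.268). In that fit 0 of 6 TAS precursors passed, 1 had an unadjusted p under 0.05, DESeq2 called 0, and 3.79% of all loci passed. Libraries of the same replicate number deviated together in each of the 10 pairs. With the replicate number as a block, TAS3A fell by 0.41 on the log2 scale (SE 0.08, 95% interval -0.58 to -0.24, edgeR adjusted p 0.00134), to 0.751 of the control level. It was the 1 TAS precursor of 6 to pass with the block, where 9.6% of loci passed and 3.79% passed as lower. The call was lost with the block when replicates 1 and 3 alone were used (log2 fold change -0.39, adjusted p 0.149) and when the labels with crossed file names were exchanged (-0.31, adjusted p 0.0961). It held without both of those libraries (-0.39, adjusted p 0.0109).

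TAS3A also differed by replicate number. The 8 replicate 4 libraries had a median of 1234 CPM, and the 14 libraries of replicates 1 and 3 had 564, 827 and 1008 CPM (lowest, median and highest), with no overlap between them. Of all tested loci, 0.237% separated replicate 4 from the rest in this way. Salmon's effective length for TAS3A was 345 to 364 nt in replicate 4 and 338 to 349 nt in the others, and its part in the difference was not tested. Treated and control libraries are present in each replicate number in both zones of proscoop12.

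In single groups TAS3A did not pass with SCOOP12, either without the block (edgeR adjusted p 0.657 to 0.893) or with it (0.0598 to 0.516). Without the block the log2 fold change was -0.24 in Ws MEZ, -0.46 in Ws DZ, -0.49 in proscoop12 MEZ and -0.48 in proscoop12 DZ, with SE from 0.35 to 0.39 in the last 3. In Ws DZ, leaving out the control of replicate 4, the highest of all TAS3A values, gave 0.09.

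The TAS1 and TAS2 precursors did not follow TAS3A. Of the 10 pairs, TAS1A was higher with SCOOP12 in 7, TAS1B in 6, TAS1C in 6, TAS2 in 6 and TAS4 in 5, by CPM. Averaged log2 fold changes were 0.14 for TAS1A (95% interval -0.18 to 0.45), 0.05 for TAS1B (-0.34 to 0.43) and 0.25 for TAS2 (-0.14 to 0.64). For TAS1C the value was 0.39 (-0.03 to 0.82) and for TAS4 0.22 (-0.55 to 0.98). None passed (edgeR adjusted p 0.340 to 0.925), and a 2-fold average change in either direction lies outside each of these intervals. The median over the 6 TAS precursors was 0.18, against 0.05 over all loci.

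The TAS1C levels with and without SCOOP12 were as follows, and no difference between groups in the response passed. In Ws MEZ it went from 14.3 to 16.4 CPM in replicate 3 and from 10.9 to 36.4 CPM in replicate 4. In proscoop12 MEZ it went the other way, from 24.4 to 19.8, from 32.3 to 10.5 and from 26.9 to 22.0 CPM. In proscoop12 DZ it went from 7.18 to 20.9, from 14.6 to 23.8 and from 6.39 to 20.4 CPM. Treated and control libraries did not overlap in any of these 3 groups, beside 32.5%, 11.6% and 17.1% of tested loci. In Ws MEZ, control replicate 1 at 16.30 CPM and SCOOP12 replicate 3 at 16.35 CPM each held 13 reads. The separation in Ws MEZ therefore rests on the scaling of library sizes.

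None of these TAS1C differences passed without the replicate number as a block, nor with it (edgeR adjusted p 0.0933 to 0.449). With the block 1.18% to 5.92% of loci passed in these groups. The values that follow are from the fit without it. The log2 fold change was 0.90 (SE 0.43, edgeR adjusted p 0.456) in Ws MEZ, -0.67 (SE 0.37, adjusted p 0.685) in proscoop12 MEZ and 1.19 (SE 0.40, adjusted p 0.172) in proscoop12 DZ. Without Ws MEZ SCOOP12 replicate 4, the library at 36.4 CPM, the Ws MEZ value was 0.23. In Ws DZ the value was 0.15 (SE 0.42), with 21.8 and 14.3 CPM in control and 19.8, 21.5 and 19.3 CPM with SCOOP12. The difference between the responses of the genotypes was -1.57 in MEZ (SE 0.57) and 1.03 in DZ (SE 0.58), neither of which passed (edgeR adjusted p 0.99986 and 0.99987). The MEZ value was -0.90 without the library at 36.4 CPM. The difference between the zones in the response of proscoop12, chosen after the levels were seen, was 1.86 (SE 0.55, unadjusted p 0.00285, edgeR adjusted p 0.189), where 0.592% of loci passed. With the block that difference was 1.85 and did not pass (edgeR adjusted p 0.0795), where 3.08% of loci passed. Over the single SCOOP12 comparisons 0 of 6 TAS precursors passed in edgeR or DESeq2, with 1 at an unadjusted p under 0.05 in Ws MEZ, 0 in Ws DZ, 0 in proscoop12 MEZ and 1 in proscoop12 DZ, while 0.237%, 0.355%, 0.829% and 1.3% of loci passed in that order.

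**Figure D4:**
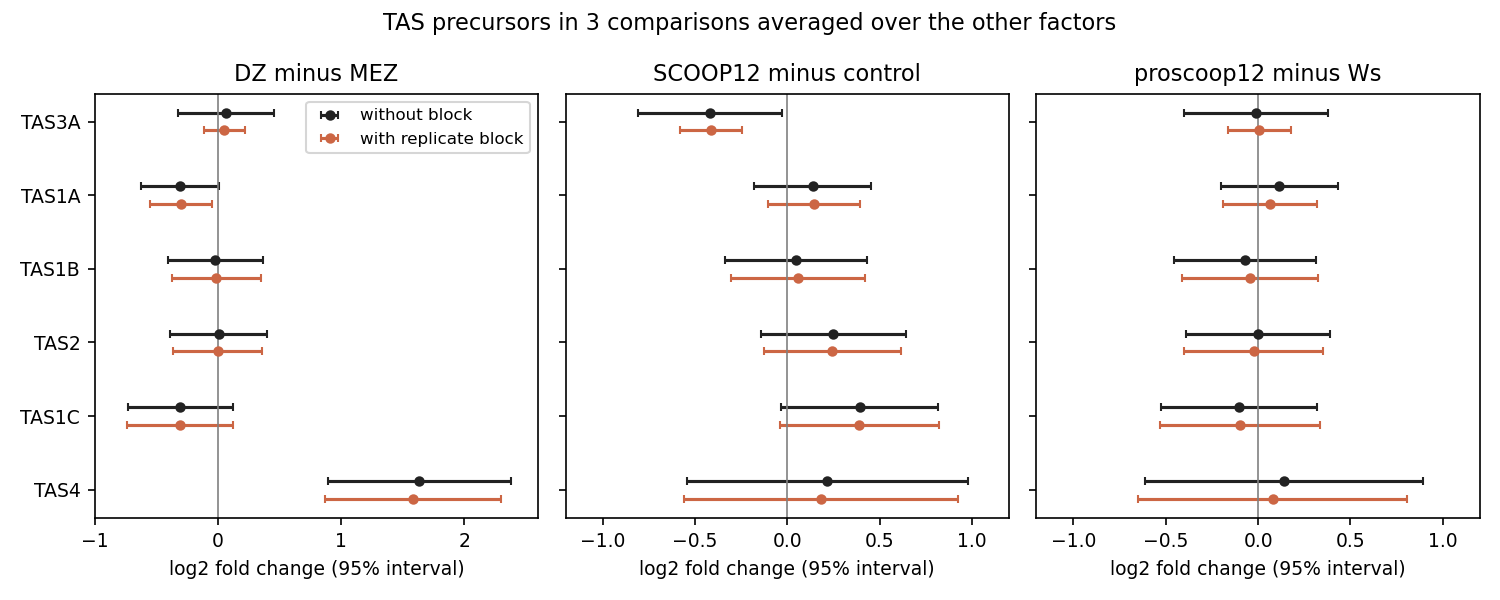
Log2 fold changes of the 6 tested TAS precursors with 95% intervals for DZ minus MEZ, SCOOP12 minus control and proscoop12 minus Ws, each averaged over the other factors, from fits without (black) and with (orange) the replicate number as a block. TAS4 lies at 1.64 for the zones, TAS3A at -0.42 and -0.41 for SCOOP12, and all 6 intervals for genotype include 0.

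The genotypes were compared to ask whether the precursors differ where PROSCOOP12 is affected. On average they were close: log2 differences of proscoop12 minus Ws ran from -0.10 for TAS1C to 0.14 for TAS4. The interval was -0.40 to 0.38 for TAS3A, -0.20 to 0.43 for TAS1A, -0.45 to 0.31 for TAS1B, -0.39 to 0.39 for TAS2, -0.52 to 0.32 for TAS1C and -0.61 to 0.89 for TAS4. A 2-fold average difference lies outside all 6. In edgeR 0 of 6 passed and 0 had an unadjusted p under 0.05, DESeq2 called 0, and 0.118% of all loci passed. The median over the TAS precursors was -0.01, against 0.002 over all loci.

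TAS1C gave the smallest p of the 6 in both control comparisons and in MEZ with SCOOP12. In the MEZ controls its 3 proscoop12 libraries (24.4, 32.3 and 26.9 CPM) were all above the 3 Ws libraries (16.3, 14.3 and 10.9 CPM), as were or reversed 7.58% of tested loci. The log2 fold change was 0.99 with an SE of 0.38 and missed the threshold (unadjusted p 0.0171, adjusted p 1 in edgeR). In the DZ controls it was -0.93 (SE 0.45, adjusted p 0.974), with the library at 14.6 CPM overlapping Ws at 14.3 CPM. With SCOOP12 it was -0.58 in MEZ (SE 0.42), which turned to 0.09 without Ws MEZ SCOOP12 replicate 4, and in DZ the largest difference among the 6 was the 0.21 of TAS1B. In these 4 comparisons 0 of 6 passed in edgeR and in DESeq2, with 1 at an unadjusted p under 0.05 in the MEZ controls and 0 in the others, beside 0.118%, 0%, 0.118% and 0% of loci.

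Across the 8 groups the precursors varied by different amounts. The highest and lowest group means, on the log2 scale, lay 1.98 apart for TAS4, 1.57 for TAS1C, 0.82 for TAS2, 0.59 for TAS1A, 0.51 for TAS3A and 0.33 for TAS1B, against a median of 1.40 over all tested loci. Within groups the SD of log2 levels was 0.34 for TAS1A, 0.46 for TAS3A and 0.78 for TAS4, against a median of 0.62. The loci whose group means were most like those of TAS3A were AT1G09927, AT3G57765 and AT2G45685, with root mean square differences of 0.13, 0.13 and 0.14 on the log2 scale over 8 group means, where the median locus was at 0.53 and TAS1B at 0.28. AT1G09927 is a lncRNA that overlaps an exon of GL2, a gene for a regulator of root hair patterning, on the same strand, AT3G57765 is an snRNA, and AT2G45685 is a lncRNA opposite an exon of TCP9. Reads of GL2 can therefore count in AT1G09927.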

How the data were processed

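The authors quantified reads with Salmon, per the submitters' processing notes, which also name DESeq2. Salmon's version and library type, the build and the annotation were not given in the sources used here. The deposited estimated counts per transcript (1 transcript per locus) were rounded to whole numbers; 1.28% to 2.01% of values per library were fractional. The deposited TPM served only for the order of levels. Transcript lengths of all 8 TAS loci equal a RefSeq TAIR10.1 transcript, and of 5224 loci 5182 matched RefSeq by locus.

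All 22 libraries were fitted as 8 group means in edgeR 4.0.16 (R 4.3.3): TMM, filterByExpr (minimum count 10, minimum total 15; 844 loci kept), quasi-likelihood F test, Benjamini-Hochberg adjustment within each comparison, threshold 0.05. SE was taken as the size of the log2 fold change divided by the root of F. The fit without a replicate term was tested on simulated data that held no replicate effect. The fit with the replicate block was not tested in this way. Alternatives used DESeq2 1.42.0, other scalings, filters and samples. TAS precursors that passed, or else the one with the smallest p, were described in each comparison. The members and lists were chosen with earlier results of these data known.

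Within groups, 20 replicate pairs differed by more than counting error (chi-square per degree of freedom 6.79 to 325). After group means were removed, treated and control libraries of the same genotype, zone and replicate number correlated at 0.117 to 0.393 over 844 loci in all 10 pairs, so the numbers were taken to pair samples for SCOOP12. Taken alone, the SCOOP12 comparisons in Ws, with 2 pairs each, were not counted as paired. For the zones and the genotypes the lowest such correlations were 0.0862 and 0.083, and the numbers were not taken to pair samples there. These values lie close to the 0.117 that was accepted for SCOOP12, so the choice between the fits was a narrow one. Single settings reached 0.363 to 0.529 (zones in proscoop12 with SCOOP12) and 0.358 to 0.634 (genotypes in DZ with SCOOP12). Both of these settings would count as paired when taken alone, and no TAS precursor passed with the block in either. The choice matters, since with the block TAS1A also passed between zones (edgeR adjusted p 0.0436), as did 47.4% of tested loci. Limits from 0 reads take 3 reads as the floor and cover counting error only. Sites were searched without gaps on the sense strand of each transcript, identity was computed with Biopython 1.88, and copies elsewhere with blastn 2.17.0.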

Additional observations from a re-analysis of the deposited data

How the results depend on the processing

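The TAS4 zone difference kept its direction and passed under all 30 alternatives (log2 fold change 1.40 to 1.79, edgeR or DESeq2 adjusted p 6.41e-05 to 0.0204). The number of TAS precursors passing was unchanged in 339 of 345 recomputed counts over 19 comparisons. With the replicate block it was 2 for the zones on average, where TAS1A was lower in DZ (log2 fold change -0.30, edgeR adjusted p 0.0436; 47.4% of loci passed), and 1 for SCOOP12 on average (TAS3A); the block changed no other count. For the zones in proscoop12 control it was 0 without the filter on low counts, 0 with the exchanged labels, 0 with replicates 1 and 3 only, and 0 to 1 when single libraries were left out; the cause was not tested. TAS3A with SCOOP12 kept its direction in all 28 further fits with the block, chosen after the data were seen, and passed in 26 (log2 fold change -0.43 to -0.31). Signs turned for TAS3A with SCOOP12 in Ws DZ (0.0904 without Ws DZ control replicate 4, -0.85 to 0.0904 over single libraries left out), for TAS1C between genotypes in MEZ with SCOOP12 (-1.06 to 0.0897) and for TAS1B between genotypes in DZ with SCOOP12 (-0.0568 with replicates 1 and 3 only). TAS1C and TAS4 rest on 4 to 26 and 1 to 28 reads per library, which limits what could be detected there.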
